A study of Callithrix jacchus with 71 samples.

Results

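The 10 genes described here are GAPDH, HK2, LDHA, PGK1, ENO1, P4HA1, STC1, NAMPT, VEGFA and SLC2A1, which belong to glucose breakdown and to the cell's response to low oxygen. They are 10 of the 23561 genes with a named row in a table of normalized counts from single marmoset cells, and all 10 have a row. The list was selected on measured values of these same cells, in which the level of GAPDH and its companions varied between cells, so the levels below are descriptions and no p-value is attached to them. The study set out to make pluripotent stem cells free of transgenes from mammalian fibroblasts without viruses, and it used RamDA-seq to see how cells of an intermediate state differ from one another. RamDA-seq copies the RNA of 1 cell along the length of its transcripts. The cells of interest were 65 E01F A-2 induced neural stem cell-like cells (iNSLCs) at passage 1. These came from skin fibroblasts of the embryonic marmoset E01F after electroporation of the EP-A episomal vectors (EGFP, a dominant-negative mouse Trp53 and the human factors LIN28, L-MYC, KLF4, SOX2 and OCT4) and culture in NSM, a medium for naive-type stem cells. Vectors were still carried by iNSLCs at that passage. They were set beside 4 embryonic stem cells (ESCs) of the No.40 line, 1 induced pluripotent stem cell (iPSC) of the clone E01F A-2-2, and a single E01F fibroblast. The term PSC cells covers the 4 ESCs together with the iPSC, pluripotent lines that are grown in an ESC medium (ESM). Cells were sorted by flow cytometry into a plate, and each library is 1 cell. The labels name 1 source for each kind of cell, so cells of a group were taken as 1 culture, differences in medium and cell type cannot be told apart, and no test between groups was possible.

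Glycolysis turns glucose into pyruvate. SLC2A1 (GLUT1) carries glucose into the cell, hexokinase traps it as glucose 6-phosphate, a chain of enzymes that includes GAPDH, phosphoglycerate kinase and enolase makes ATP and pyruvate, and lactate dehydrogenase turns pyruvate into lactate while it restores NAD for GAPDH. When oxygen is low, the hypoxia-inducible factors (HIFs) are no longer marked for destruction by the EGLN prolyl hydroxylases and raise transcription of many of these genes, together with that of secreted factors such as VEGFA. Pluripotent and neural stem cells are both known for high glycolytic rates. The oxygen level of the cultures was not given in the sources used here.

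The iNSLC libraries held between 82268 and 695241 reads (median 268128), and between 7574 and 13058 genes were detected. The PSC cells held 134328 to 1003718 reads and the fibroblast 1294430. ESC cell 11 was the shallowest PSC cell, with 7126 detected genes against 13669 to 15521 in the other PSC cells, and 1 read there was worth 2.55 normalized counts. Results for single genes are therefore given cell by cell. All 8 pluripotent markers listed were higher in PSC cells than in iNSLCs by at least 1 log2 unit, and 9 of 10 neural stem cell markers were lower. The filter was a mean of at least 1 over all these cells. Every pluripotent marker had an iNSLC mean below 1 and passed it only through PSC cells. Neural markers with a PSC mean below 1, such as POU3F2 without a read and CDH2 at 0.0810, passed it only through iNSLCs. Such directions were fixed by the filter. Of 17 cell cycle genes 1 was lower and 8 were higher (median 0.96). Of 7 fibroblast markers that passed the filter 2 were lower and 3 higher (median 0.43), and the only endothelial marker that passed it, PECAM1, was higher in PSC cells. Of the fibroblast markers, COL6A3 passed it only through PSC cells and COL1A2 only through iNSLCs. The 14 fibroblast markers summed to 31545 normalized counts in the fibroblast, to 1.15 to 1153 in iNSLCs (median 134) and to 94.5 to 549 in PSC cells. Fibroblast genes were uneven in iNSLCs. COL1A2 had a mean of 104 there with a read in 69.2% of cells, FBN1 56.0 with 92.3% and COL5A1 24.7 with 86.2%. In the fibroblast these had 11345, 363 and 2646. THY1 and PDGFRB had iNSLC means of 8.14 and 7.36 against 72.8 and 224 in the fibroblast, and COL1A1 stood at 1.52 against 9769. The rest were near 0 in iNSLCs, since COL3A1, COL6A3, DCN, LUM, POSTN, FAP, TWIST2 and S100A4 had means between 0 and 0.655. Whether fibroblast genes bear on the 10 genes was not tested.

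All 10 genes had a lower mean in PSC cells than in iNSLCs, with log2 ratios between -3.93 for VEGFA and -1.08 for LDHA. STC1, with a PSC mean of 0.666, passed the filter only through iNSLCs, so its direction was fixed by the filter. The ratio is log2 of the mean plus 1 in PSC cells over the same in iNSLCs, and -1 or below was counted as lower. Of the 14045 genes whose mean over all these cells reached 1, 17.4% were lower at that limit and 24.4% were higher by the same amount. With every cell scaled to the same total these shares were 22.1% and 18.1%, and all 10 genes were still lower. The median log2 ratio was -2.05 over the 10 genes and 0.16 over all genes tested. For 6 of the 10 genes, namely GAPDH, HK2, STC1, NAMPT, VEGFA and SLC2A1, all 5 PSC cells lay below the iNSLC median, which held for 9.63% of all genes. Since the choice of the genes drew on these cells, nothing about the list is read from these shares.

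SLC2A1, the glucose carrier, ranged from 53.4 to 2941 normalized counts in iNSLCs with a median of 764. The 4 ESCs (cells 10, 11, 12 and 14) had 208, 7.66, 138 and 51.6, the iPSC had 285 and the fibroblast had 14.2. All 5 PSC cells lay in the lower part of the iNSLC range or under it, ESC cells 11 and 14 and the fibroblast being below every iNSLC. The mean was 922 in iNSLCs and 138 in PSC cells, 6.63-fold lower on the scale with a pseudocount of 1. HK2, the hexokinase isoform that is inducible in many tissues, ranged from 0 to 1009 in iNSLCs with a median of 98.7. Its PSC values were 10.1, 0, 56.2 and 44.2 in the ESCs and 43.8 in the iPSC, all within the lower part of the iNSLC range. The fibroblast had 2.83, which is 7 reads. HK2 had a read in 61 of 65 iNSLCs, or 93.8% with an exact 95% interval of 85.0% to 98.3% for counting error, so the iNSLCs spanned the whole range from no detected HK2 to far above any PSC cell.

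GAPDH, which oxidises glyceraldehyde 3-phosphate and is often used as a reference gene, ranged from 1008 to 6393 normalized counts in iNSLCs with a median of 2519. ESC cells 10, 11 and 14 had 193, 143 and 162, while ESC cell 12 had 1518 and the iPSC 1649. The PSC cells thus fell into 3 cells below every iNSLC and 2 cells inside the lower iNSLC range. The mean of 733 in PSC cells was 3.81-fold lower than the mean of 2794 in iNSLCs, and the log2 ratio was -1.93 over all PSC cells and -2.47 without the iPSC. PGK1, which makes the first ATP of the pathway, ranged from 3.95 to 726 in iNSLCs with a median of 146. Its values were 68.8, 0, 126 and 60.8 in the ESCs and 182 in the iPSC, which therefore lay above the iNSLC median. ENO1, the main enolase of most tissues, ranged from 175 to 2112 in iNSLCs with a median of 744, against 250, 174, 569 and 142 in the ESCs and 771 in the iPSC. LDHA, the lactate dehydrogenase subunit of glycolytic tissues, ranged from 7.16 to 813 in iNSLCs with a median of 105. Its ESC values were 16.2, 0, 123 and 19.2, and the iPSC had 199.

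ESC cell 12 and the iPSC held the higher values for all 4 of these enzymes, and for LDHA both were above the iNSLC median. The log2 ratios of LDHA (-1.08), PGK1 (-1.10) and ENO1 (-1.12) stood close to the limit. Without ESC cell 11, in which no read of LDHA or PGK1 was found, they were -0.77, -0.78 and -0.94. Without ESC cell 14 they were -0.84, -0.99 and -0.91, so that 7 of the 10 genes were lower when either of these cells was left out alone. The share of all genes was not computed with a PSC cell left out. Without ESC cell 10 the ratio of LDHA was -0.83 and 9 genes were lower, whereas without the iPSC it was -1.92. Processed copies of GAPDH, LDHA, PGK1 and ENO1 are common in primate genomes, and how reads shared with such copies were counted was not given, so levels of these 4 genes are uncertain to that extent.

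VEGFA, the secreted growth factor for blood vessels, ranged from 6.12 to 703 normalized counts in iNSLCs and the median was 93.8. Values of the ESCs were 5.67, 5.11, 4.86 and 0, all below every iNSLC, and the iPSC had 18.2. The means were 117 in iNSLCs and 6.76 in PSC cells, 15.2-fold lower after the pseudocount of 1, and the log2 ratio was -3.93, or -4.59 without the iPSC. STC1, a secreted glycoprotein hormone linked to calcium and phosphate balance, ranged from 0 to 172 in iNSLCs with a median of 9.17. It had a read in 57 of 65 iNSLCs (87.7%, exact 95% interval 77.2% to 94.5%) and in 1 of 5 PSC cells, ESC cell 14 with 4 reads or 3.33 normalized counts. Its log2 ratio was -3.47, or -4.21 without that cell. P4HA1, the catalytic subunit of a collagen prolyl hydroxylase, ranged from 1.79 to 295 in iNSLCs with a median of 29.8, and the PSC values were 3.24, 7.66, 3.24 and 7.50 in ESCs and 35.3 in the iPSC. The iPSC thus stood above the iNSLC median and the ESCs near the bottom of the iNSLC range, with a log2 ratio of -2.17 over all PSC cells and -3.12 without the iPSC. NAMPT, the rate-limiting enzyme that recycles nicotinamide to NAD, ranged from 0 to 173 in iNSLCs with a median of 18.7. Its values of 6.88, 2.55, 8.64, 10.00 and 6.41 in the 5 PSC cells lay close together, within the lowest part of the iNSLC range.

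**Figure D1:**
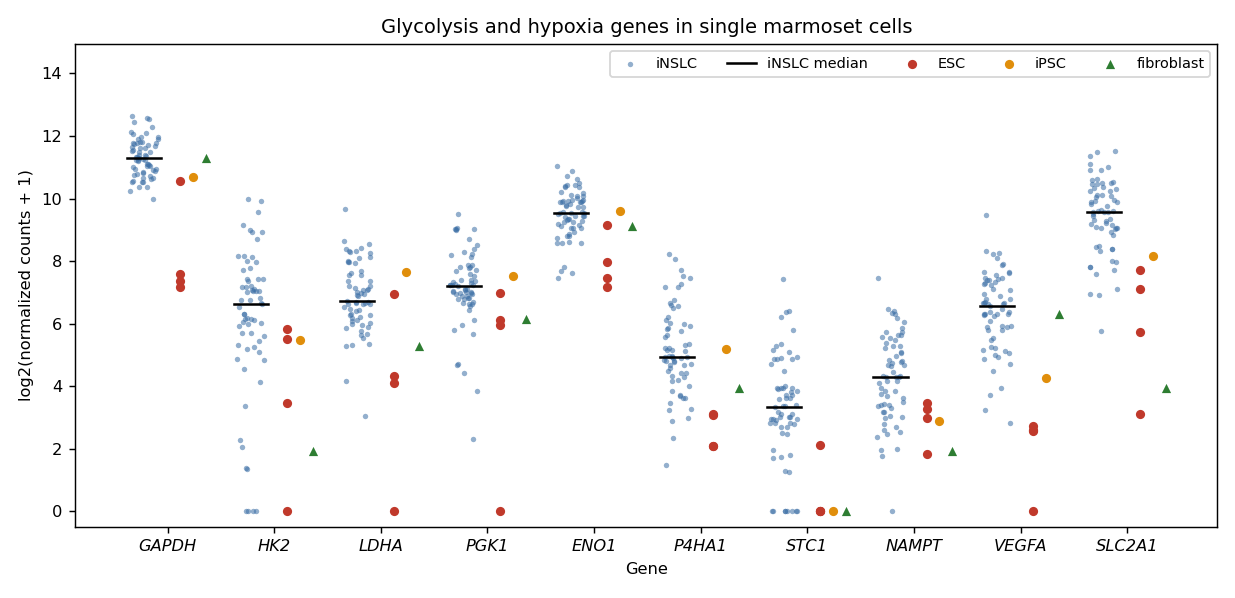
Level of the 10 genes in every cell. The vertical axis is log2 of normalized counts plus 1, each small blue dot is an iNSLC (n = 65, black bar at the median), red dots are the 4 ESCs, orange dots the iPSC and green triangles the fibroblast. For GAPDH 3 ESCs lie below all iNSLCs while ESC cell 12 (1518) and the iPSC (1649) do not, and for VEGFA all 4 ESCs lie below all iNSLCs.

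The fibroblast, the only cell of its kind, was lower than the iNSLC mean by at least 1 log2 unit for 7 of the 10 genes, where 28.7% of the 13737 genes tested were lower and 21.7% were higher. The 3 others were GAPDH, ENO1 and VEGFA. GAPDH was at 2495 in the fibroblast, next to the iNSLC median of 2519, and the log2 ratio to the iNSLC mean was -0.16. VEGFA was at 78.9 (log2 ratio -0.56) and ENO1 at 552 (-0.59). The furthest below were SLC2A1 (-5.93) and HK2 (-5.42). STC1 had no read in the fibroblast, where 3 reads would be worth 1.21 normalized counts, so it was at least 14.4-fold lower than the iNSLC mean of 17.5. Here too STC1 passed the filter only through iNSLCs, and its direction was fixed by it. The fibroblast and the PSC cells differed in order for VEGFA, which was higher in the fibroblast than in every PSC cell, and for SLC2A1, which was lower in the fibroblast than in 4 of 5 PSC cells. Scaling every cell to the same total lowered the median log2 ratio of the fibroblast by 0.75, over genes whose mean in iNSLCs and PSC cells together reached 10. On that scale GAPDH was at -0.93, ENO1 at -1.37 and VEGFA at -1.31, the last 2 then being past the limit. That made 9 of the 10 genes lower, where 42.5% of all genes were lower and 10.3% higher.

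The rest of the pathway was uneven. Of 17 glycolysis enzymes, 9 were lower in PSC cells and 2 were higher, with a median log2 ratio of -1.04, and of the 12 that are not among the 10 genes, 4 were lower and 2 higher with a median of -0.47. GPI, which converts glucose 6-phosphate to fructose 6-phosphate, averaged 957 in iNSLCs, with values of 106, 110, 267, 143 and 287 in PSC cells, all below the iNSLC median of 541. ALDOA, the aldolase of muscle and many other tissues, averaged 511 in iNSLCs and 143 in PSC cells. PKM, the pyruvate kinase of most tissues, had means of 294 and 265, and PGAM1, a phosphoglycerate mutase, of 128 and 107. The hexokinase isoforms differed. HK1, the constitutive hexokinase, had means of 56.4 in iNSLCs and 61.8 in PSC cells where HK2 had 163 and 30.8. The phosphofructokinase subunits PFKM and PFKP were higher in PSC cells, with means of 93.8 against 32.8 and of 131 against 46.3, and every PSC cell was above the iNSLC median for both. PFKL had a log2 ratio of 0.80 in the same direction. In other families isoforms shared a direction, with log2 ratios of -1.84 for ENO2, -0.75 for ALDOC and -0.68 for LDHB, though the last 2 did not reach the limit.

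Of 15 regulators of glycolysis and handlers of pyruvate or lactate, 1 was lower and 2 were higher, with a median of 0.44. The lower one was PDK1, the kinase that shuts off pyruvate dehydrogenase, which averaged 57.1 in iNSLCs and 10.2 in PSC cells. SLC16A3, a lactate exporter, stood at 100 in iNSLCs and 195 in PSC cells with a log2 ratio of 0.95, and BSG, the partner of lactate carriers, at 269 and 163. SLC2A1 was the only lower one of 7 glucose transporters tested, among which SLC2A6 and SLC2A8 were higher and the median was 0.42. Genes of the HIF pathway itself were split, with 2 lower and 4 higher of 10 and a median of 0.25, or -0.14 without the iPSC. HIF1A, the oxygen-regulated subunit, had means of 51.9 in iNSLCs and 32.1 in PSC cells. EGLN1, the main oxygen sensor that marks HIF proteins, had means of 38.1 and 4.67, whereas EGLN3, itself a HIF target, had 13.1 and 43.3. EPAS1, which encodes HIF-2 alpha, averaged 0.188 in iNSLCs, with a read in 7.69% of them, 32.2 in PSC cells and 119 in the fibroblast. EPAS1 passed the filter only through the PSC cells, so its direction was fixed by the filter.

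Of 28 other hypoxia response genes tested, 15 were lower in PSC cells and 5 were higher, and the median was -1.04 against 0.16 for all genes. The shares over all genes were 17.4% lower and 24.4% higher. BNIP3 and BNIP3L, which direct mitochondria to autophagy, had means of 126 and 116 in iNSLCs and of 34.5 and 24.7 in PSC cells. DDIT4, an inhibitor of mTORC1 signalling, had means of 198 and 67.2, but its PSC mean rested on ESC cell 12 (64.3) and the iPSC (269), the other 3 ESCs having 1.62, 0 and 0.833. WSB1, a component of a ubiquitin ligase, had means of 206 and 101. ADM, the vasodilator adrenomedullin, had no read in any PSC cell, at least 12.8-fold below its iNSLC mean of 8.26, although only 24.6% of iNSLCs had a read. Among the lower genes, ADM and LOX (PSC mean 0.571) passed the filter only through iNSLCs, so their directions were fixed by the filter. ANGPTL4, a secreted inhibitor of lipoprotein lipase and also a hypoxia response gene, went the other way with means of 2.35 in iNSLCs and 40.2 in PSC cells.

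The families of P4HA1, NAMPT, VEGFA and STC1 were mixed. Of 6 genes of collagen hydroxylation tested, P4HA1 was the only lower one and PLOD3 the only higher one (median -0.72), and P4HB, the partner subunit of P4HA1, had means of 345 and 354. Of 6 genes of NAD synthesis, NAMPT and NMNAT2 were lower and NADSYN1 and QPRT higher (median 0.07, or -1.89 over its genes whose mean reached 10). NMNAT2, with a PSC mean of 0.916, passed the filter only through iNSLCs, so its direction was fixed by the filter. Among 7 VEGF ligands and receptors, VEGFA, PGF and NRP2 were lower while the receptors FLT1 and FLT4 were higher. The median was -0.57, or -3.37 over the genes whose mean reached 10. FLT1 and FLT4, with iNSLC means of 0.495 and 0.708, passed the filter only through PSC cells. PGF and NRP2, with PSC means of 0.432 and 0.941, passed it only through iNSLCs. The directions of these genes were therefore fixed by the filter. KDR, another receptor, had no read in iNSLCs and a mean of 7.22 in PSC cells, and it did not pass the filter. STC2 had means of 0.557 in iNSLCs and 3.33 in PSC cells, and its mean over all these cells did not reach 1, so it was not tested. Of 17 enzymes of the tricarboxylic acid cycle 1 was lower and 2 were higher (median 0.21, or -0.19 without ESC cell 12), and of 10 subunits of the respiratory chain and ATP synthase none was lower and 1 was higher (median 0.38). Of 13 genes of amino acid and endoplasmic reticulum stress, 3 were lower and 2 higher (median 0.07). Among the lower ones, DNAJB9, with a PSC mean of 0.569, passed the filter only through iNSLCs.

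**Figure D2:**
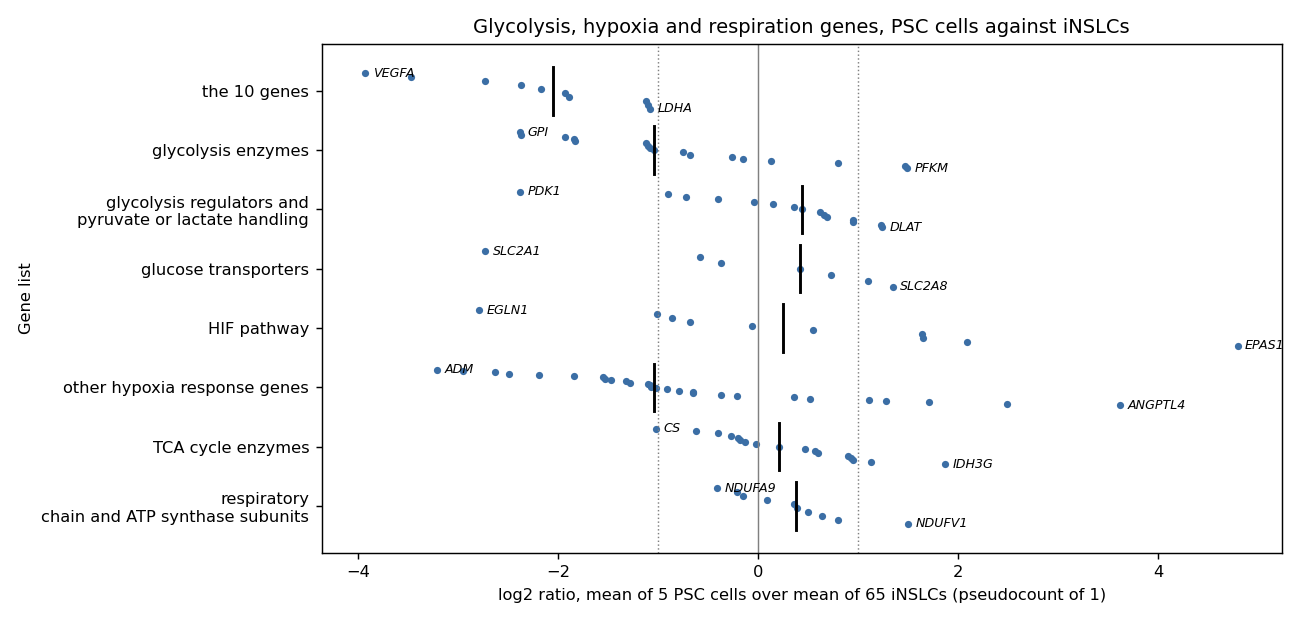
Log2 ratio of the mean of 5 PSC cells over the mean of 65 iNSLCs, after a pseudocount of 1, on the horizontal axis for each gene (dot) of 8 lists, with the list's median as a black bar and dotted lines at -1 and 1. The 10 genes lie wholly to the left of -1, the glycolysis enzymes run from GPI (-2.38) to PFKM (1.49), and TCA cycle and respiratory genes centre near or above 0.

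Among iNSLCs the 10 genes varied to very different degrees. The coefficient of variation over cells was 0.438 for GAPDH and 0.485 for ENO1, between 0.715 and 0.906 for SLC2A1, PGK1, LDHA and VEGFA, and 1.02 for NAMPT, 1.12 for P4HA1, 1.30 for HK2 and 1.52 for STC1. Counting error contributes more at low counts, and STC1, NAMPT and P4HA1 had the fewest reads in iNSLCs (1351, 1957 and 4108 over all 65 cells). HK2 had 10027 reads, close to the 10471 of LDHA, whose coefficient of variation was 0.838.

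Between the sets of cell numbers in the labels, the 10 genes differed in direction and in size of difference. Cells numbered 56 or below (n = 27) and 57 or above (n = 38) have no other label that tells them apart, and the boundary comes from an earlier look at these data. NAMPT, STC1, P4HA1 and LDHA were lower in cells numbered 57 or above by at least 1 log2 unit, which was so for 7.11% of 13603 genes. The NAMPT mean was 46.8 in the first set (2.36 to 173, median 40.6) and 15.0 in the second (0 to 48.2, median 12.1). For STC1 the means were 30.2 and 8.48, for P4HA1 89.5 and 30.3, and for LDHA 224 and 102. The ranges of the sets overlapped for all 4 genes. The spans between the lower and upper quartile did not overlap for LDHA (129 to 307 in the first set and 59.1 to 115 in the second) and for NAMPT (23.4 to 61.5 and 6.95 to 19.1). The share of all genes with such separate spans was not counted, so nothing about the 2 genes is read from it. PGK1 (log2 ratio -0.71), HK2 (-0.66) and ENO1 (-0.17) also had lower means in the second set, although the ratio of medians was 0.06 for ENO1. SLC2A1 (0.53), VEGFA (0.32) and GAPDH (0.29) had higher means, none of them by 1 log2 unit, a limit that 7.31% of all genes passed. With every cell scaled to the same total, the same count of 4 genes was lower, and 10.0% of all genes were lower and 5.0% higher. The median log2 ratio was -0.69 over the 10 genes and 0.04 over all genes tested. Since the choice of the genes and of the boundary drew on these cells, nothing about the list is read from these shares.

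The sets also differed in depth. The median was 357910 reads and 10061 detected genes in cells numbered 56 or below, and 208746 reads and 11334 detected genes in those numbered 57 or above. After every cell was thinned to 130000 reads, the ratios were -1.60 for NAMPT, -2.06 for STC1, -1.74 for P4HA1 and -1.17 for LDHA. In those thinned cells the median number of detected genes was 9305 in the first set (24 cells) and 10509 in the second (34 cells), and its part in these ratios was not tested.

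**Figure D3:**
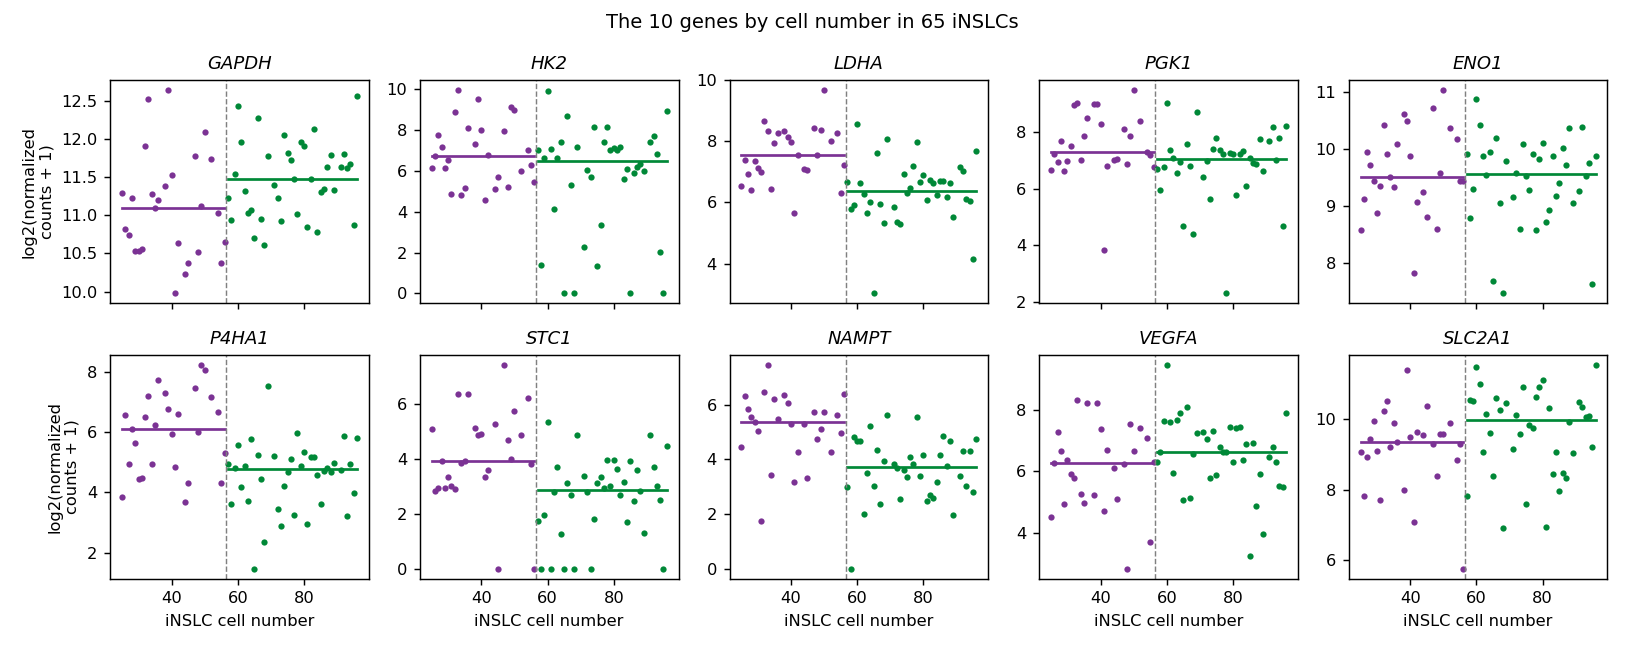
Log2 of normalized counts plus 1 (vertical axis, a scale for each gene) against the cell number in the labels (horizontal axis) in the 65 iNSLCs. Purple dots are cells numbered 56 or below and green dots 57 or above, with a line at each set's median, and the dashed line marks the boundary. LDHA, P4HA1, STC1 and NAMPT sit lower on the right, GAPDH and SLC2A1 sit slightly higher.

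The 10 genes varied together among iNSLCs. Over the 45 pairs of genes, Pearson's r of log2 values over the 65 cells had a median of 0.48 and ran from 0.07 for NAMPT and SLC2A1 to 0.81 for PGK1 and ENO1, and no pair was negative. At least 0.3 was reached by 35 of 45 pairs, and by 5.99% of the 18711903 pairs formed by all 6118 genes whose iNSLC mean reached 10, with a median r of 0.04. Abundant genes correlate more readily, and among the 386 genes whose mean reached 100 the share was 19.0% and the median 0.09. The cells share a culture, and the correlations are descriptions over cells of differing depth. After log2 reads and log2 detected genes of each cell were removed by regression, the median over the 45 pairs was 0.38, and 28 pairs reached 0.3 against 2.59% of all pairs. Since the choice of the genes drew on variation between these cells, nothing about the list is read from these shares or from those within the sets below.

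Described by pairs picked out after the values were seen, LDHA, P4HA1, STC1 and NAMPT had r of 0.80 for LDHA and P4HA1, 0.68 for LDHA and STC1, 0.64 for LDHA and NAMPT, 0.62 for P4HA1 with both STC1 and NAMPT, and 0.49 for STC1 and NAMPT. These are the same 4 genes that were lower in cells numbered 57 or above. With reads and detected genes removed, LDHA and P4HA1 had 0.62 and LDHA and STC1 0.47, but P4HA1 and STC1 had 0.37, LDHA and NAMPT 0.28, P4HA1 and NAMPT 0.26 and STC1 and NAMPT 0.15. Among GAPDH, PGK1 and ENO1, r was 0.81 for PGK1 and ENO1, 0.67 for GAPDH and ENO1 and 0.60 for GAPDH and PGK1, and 0.78, 0.70 and 0.64 with depth removed. LDHA had 0.66 to ENO1 and 0.65 to PGK1, or 0.65 and 0.56 with depth removed. HK2 had 0.69 to LDHA and 0.63 to ENO1. Before depth was removed, VEGFA and SLC2A1 had the lowest median r to the other 9 genes, 0.29 and 0.33. Their highest values were 0.50 for VEGFA with HK2 and 0.54 for SLC2A1 with GAPDH, and both were the same with depth removed. NAMPT then ran only from 0.04 with SLC2A1 to 0.29 with ENO1, so the order depended on depth.

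Within the sets of cell numbers some pairs of GAPDH had a higher r than over all cells. GAPDH and LDHA had an r of 0.37 over all iNSLCs but 0.67 within cells numbered 56 or below and 0.67 within those numbered 57 or above, and the mean of GAPDH was higher and that of LDHA lower in the second set. GAPDH and HK2 had 0.42 pooled, 0.76 in the first set and 0.50 in the second, and GAPDH and PGK1 0.60, 0.81 and 0.75. GAPDH and SLC2A1 did not, with 0.54, 0.52 and 0.53, and GAPDH and VEGFA had 0.49, 0.55 and 0.38. The median over the 45 pairs was 0.51 in the first set, where 41 pairs reached 0.3 against 10.0% of all pairs, and 0.47 in the second, where 40 pairs did so against 8.37%. In the other direction went pairs among the 4 genes that were lower in cells numbered 57 or above. STC1 and NAMPT had 0.49 pooled but 0.27 and 0.40 within the sets, and LDHA and NAMPT 0.64 but 0.53 and 0.47. P4HA1 and NAMPT had 0.62 but 0.48 and 0.46, and P4HA1 and STC1 0.62 but 0.48 and 0.56. LDHA and P4HA1 had 0.80 pooled, 0.80 in the first set and 0.70 in the second, and LDHA and STC1 0.68, 0.46 and 0.71.

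**Figure D4:**
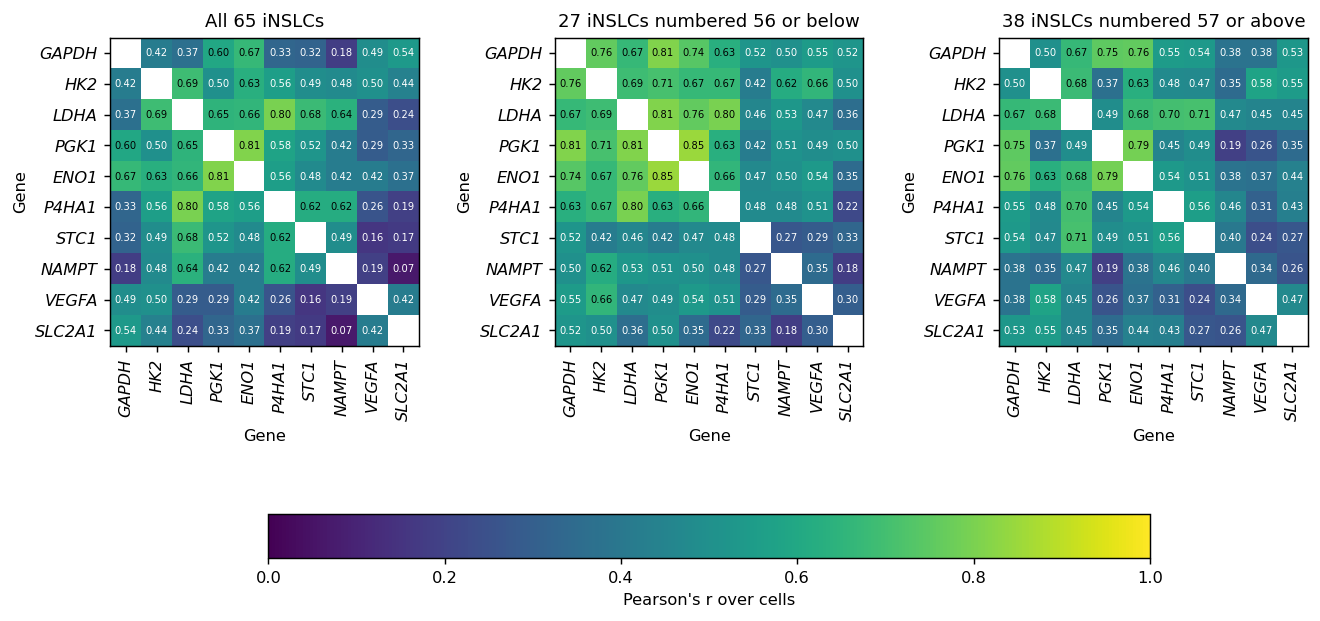
Pearson's r of log2(normalized counts + 1) over cells for each pair of the 10 genes, printed in each square and coloured from 0 to 1, over all 65 iNSLCs (left), 27 iNSLCs numbered 56 or below (middle) and 38 numbered 57 or above (right). No square is negative, PGK1 with ENO1 is high in all 3 panels (0.81, 0.85 and 0.79), and GAPDH with LDHA is higher within each set (0.67) than over all cells (0.37).

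At the level of single cells the genes were high or low together. Each gene was ranked over the 65 iNSLCs, and cell 39 was in the upper quartile for all 10 genes, with GAPDH at 6393, SLC2A1 at 2656, HK2 at 752, PGK1 at 515, LDHA at 278 and VEGFA at 298. Cell 33 was in the upper quartile for 9 genes and had the highest HK2 (1009) and NAMPT (173) of all cells. Cell 65 was in the lower quartile for all 10 genes, with no read of HK2 or STC1 and with GAPDH at 1668, ENO1 at 204, LDHA at 7.16 and P4HA1 at 1.79. In all, 6 iNSLCs had at least 8 of the genes in the upper quartile, 5 of them numbered 56 or below, and 4 had at least 8 in the lower quartile, 3 of them numbered 57 or above. In 20 iNSLCs none of the 10 genes was in the upper quartile. Cell 39 had 403130 reads and 9634 detected genes, cell 33 had 273156 and 7574, and cell 65 had 172365 and 11437.

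**Figure D5:**
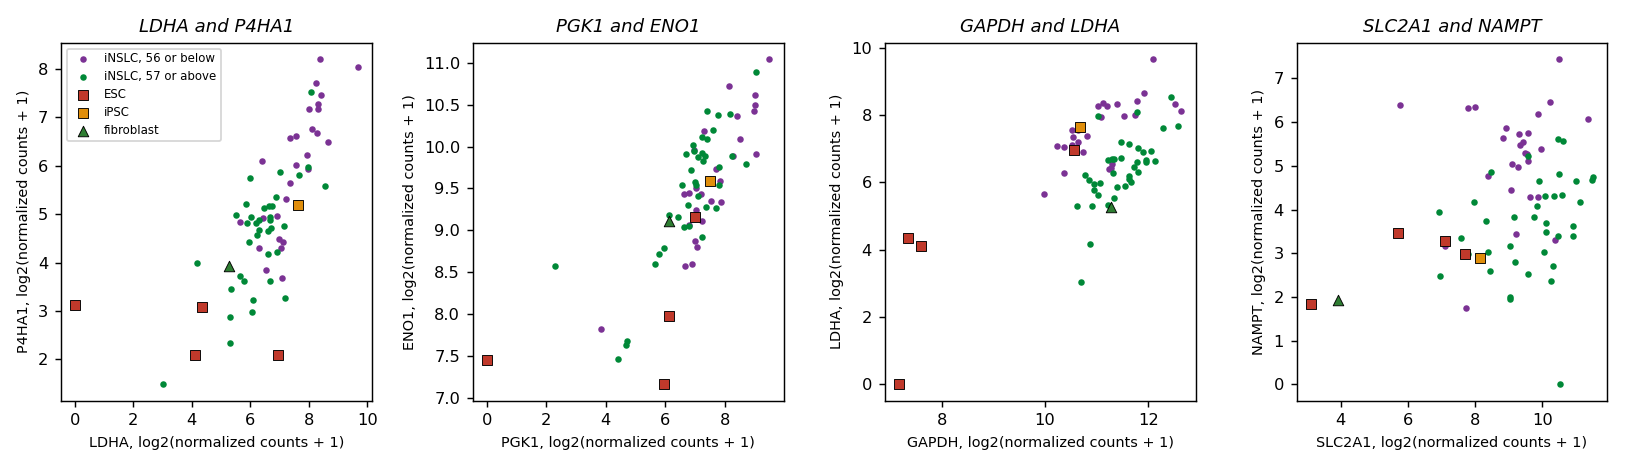
Log2(normalized counts + 1) of one gene against another in every cell for 4 pairs. Purple and green dots are iNSLCs numbered 56 or below and 57 or above, red squares ESCs, orange squares the iPSC and triangles the fibroblast. LDHA and P4HA1 (r = 0.80) and PGK1 and ENO1 (r = 0.81) lie along a line over iNSLCs, in the panel of GAPDH and LDHA most purple dots lie above the green ones, and SLC2A1 and NAMPT (r = 0.07) form no line.

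The correlation with log2 detected genes was negative for all 10 genes. It was -0.51 for LDHA, -0.46 for NAMPT, -0.39 for P4HA1, -0.37 for HK2 and -0.36 for STC1, and ran from -0.32 to -0.09 for the others. With log2 reads it lay between -0.11 for VEGFA and 0.34 for P4HA1. With the log2 total of normalized counts it was 0.55 for GAPDH, 0.32 for SLC2A1 and 0.30 for VEGFA, and -0.32 for NAMPT. The part of these measures in the levels was not tested beyond the regression above.

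Other genes of the pathways ranged from closely tied to the 10 over iNSLCs to not tied. Against the mean z score of the 10 genes, GPI had an r of 0.87, first of 5817 named genes and ahead of each of the 10, which are themselves part of the score. ALDOA (0.77), PGAM1 (0.76), BNIP3 (0.74) and KDM3A (0.73), a histone demethylase induced by HIF, were also within the first 10. At the other end LDHB had 0.10, PFKM -0.04, PFKL -0.11, SLC2A4 -0.33 and ARNT2 -0.41. The median r over pairs was 0.38 among the 17 glycolysis enzymes and 0.27 among 20 other hypoxia response genes, while it was 0.03 for 7 HIF pathway genes, 0.06 for 11 TCA cycle enzymes, 0.10 for 9 respiratory and ATP synthase subunits and 0.10 for 8 stress genes. Co-variation was not particular to glycolysis, for 12 cell cycle genes had a median r of 0.51.

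Outside the lists, the genes with the highest r to the score were ARL6 (0.70), HSPB1 (0.68), EIF4H (0.66), CCNG2 (0.63), DDX3X (0.63), WDR45B (0.59), RPS4X, RBM39 and CANX (0.58 each) and REEP5 (0.57). HSPB1 encodes a small heat shock protein, EIF4H and DDX3X help unwind mRNA for translation, and CANX is a chaperone of the endoplasmic reticulum. Their PSC levels did not all follow the 10 genes, since CCNG2 had means of 45.8 in iNSLCs and 5.86 in PSC cells but HSPB1 had 74.2 and 75.0 and DDX3X 110 and 150.

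GAPDH was nearest to ALDOA (0.81) and HSPB1 (0.77), PGK1 to ENO1 (0.81) and GPI (0.74), ENO1 to PGAM1 (0.81) and PGK1 (0.81), and HK2 to LDHA (0.69) and KDM3A (0.68). LDHA and P4HA1 were nearest to each other and then to DDX3X (0.71 and 0.75). STC1 was nearest to LDHA (0.68) and PTP4A1 (0.63), a phosphatase, and NAMPT to PTP4A1 (0.74) and RPL5 (0.68), a ribosomal protein, and both PTP4A1 and RPL5 were lower in cells numbered 57 or above by 1.58 and 1.38 log2 units. VEGFA was nearest to WSB1 (0.66) and LENG8 (0.63), and SLC2A1 to DDIT4 (0.55) and ALDOA (0.54).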

How the data were processed

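Single-cell RamDA-seq libraries (GenNext RamDA-seq kit and Nextera XT) of 71 marmoset cells were analysed from 1 table. The authors deposited normalized counts, a signal in which each cell has a scaling factor of its own. Tools named in the submitters' processing notes are STAR 2.6.0c, featureCounts 1.5.1, Trimmomatic and Seurat 3.0.0. Their roles, the normalization step, the genome build, the annotation and the use of strand were not given in the sources used here. Values are whole multiples of the value of 1 read, recovered in each cell, and 100% of non-zero values lay within 0.02 of a whole read. A nameless row, up to 0.449% of the total in any cell, was excluded.

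Groups were taken from the sample titles. The 10 genes, the other 17 gene lists (213 listed genes in all, of which 17 have no row), the boundary at cell number 56 and the alternatives were chosen with earlier results of these data known. No count model and no test was run, because each group is 1 culture. Ratios are log2 of group means after a pseudocount of 1, over genes whose mean over all cells compared reached 1. A gene with a mean below 1 in a group passes this filter only through the other group, and its direction is then fixed by the filter. For PSC cells the filter mean ran over 65 iNSLCs and 5 PSC cells. A gene read only in PSC cells therefore needed a higher group mean to pass than a gene read only in iNSLCs. Correlations used log2 values of genes whose iNSLC mean reached 10. Shares have exact Clopper-Pearson and reads exact Poisson intervals at 95%, which cover counting error only, and a group without reads was set at 3 reads over the group. Python 3.11.15, pandas 2.3.3, numpy 2.4.6, scipy 1.17.1 and matplotlib 3.10.9 were used, and the steps were tested on simulated data.

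Genes were named by rule: the 10 genes, up to 4 genes of each other list by mean, the 10 genes outside the lists with the highest r to the mean z score, and the 2 nearest genes of each of the 10. Outside this rule, and picked with their values in view, are HK1, PFKL, PFKM, PFKP, ENO2, ALDOC, LDHB, EGLN3, ARNT2, EPAS1, ADM, LOX, ANGPTL4, PGF, KDR and DNAJB9. The remaining fibroblast markers were named to complete their list. Markers were listed for fibroblasts, neural stem cells, pluripotent cells and endothelial cells. Alternatives were a pseudocount of 10, another filter on low values, scaling to the median total, thinning to 130000 reads (58 iNSLCs and all 5 PSC cells reach it), leaving out the 10% of iNSLCs with the fewest genes, medians over cells, Spearman's rho, other detection limits and leaving out each PSC cell.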

Additional observations from a re-analysis of the deposited data

Results flagged for a closer look

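Among the 4 ESCs, 11 measures were examined (the 10 genes and the number of detected genes), and 5 had 1 cell that stood apart from the other 3 by Dixon's criterion. Its chance rate of about 1 group in 20 is for normally distributed values. The criterion was applied to counts that were not log-transformed, so that rate does not apply here and 5 of 11 is not set against it. GAPDH was 1518 normalized counts in ESC cell 12 against 143 to 193 in the other ESCs. LDHA was 123 in the same cell against 0 to 19.2. STC1 was 3.33 in ESC cell 14, the only ESC with a read of it. With the other 3 at 0 any such value meets the criterion. VEGFA was 0 in ESC cell 14 against 4.86 to 5.67, which is a difference of a few reads. The number of detected genes was 7126 in ESC cell 11 against 15122 to 15521.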

How the results depend on the processing

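No log2 ratio of the 10 genes in PSC cells or the fibroblast changed sign, and in the sets of cell numbers ENO1 alone did (-0.17, or 0.06 from medians). The medians of the HIF pathway, NAD synthesis, TCA cycle, stress and fibroblast marker lists, all between 0.07 and 0.43, were below 0 under at least 1 alternative, down to -0.68 for the HIF pathway, -1.89 for NAD synthesis and -1.23 for fibroblast markers over the list genes with a mean that reached 10. On the same limit the medians were -3.37 for VEGF ligands and receptors and 7.19 for pluripotent markers. No paired analysis was possible because the replicate numbers are cell numbers that no 2 groups share. Scaling to the median total lowered the median log2 ratio of the more abundant genes by 0.29 for PSC cells, 0.17 for cells numbered 57 or above and 0.75 for the fibroblast, whose ratios were then -0.93 for GAPDH and -1.37 for ENO1. With a pseudocount of 10 the PSC ratios of STC1 and NAMPT were -1.37 and -1.18, the fibroblast ratio of STC1 was -1.46, and the medians of neural stem cell and pluripotent markers were -1.77 and 3.05. The share of all genes lower in PSC cells was 4.8% with that pseudocount and 10.5% with no filter. The share of iNSLCs with a value of at least 10 was 89.2% for P4HA1, 44.6% for STC1 and 69.2% for NAMPT. Of the 10 genes, 8 were lower once the 10% of iNSLCs that had the fewest detected genes were removed, and 7 to 10 with 1 PSC cell left out at a time. The share of all genes was not computed with cells left out. Of 315 alternative pair correlations, 29 moved by more than the SD of 0.18 over pairs and the lowest was -0.01, for NAMPT and SLC2A1 in thinned cells. Shallow cells limit the low values, since 1 read in ESC cell 11 is worth 2.55 normalized counts.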
